A study of Homo sapiens with 10 samples.

Results

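Transcripts of the extracellular matrix, the integrins that bind it and the proteases that cut it were followed in WM164 cells, an established human melanoma line. A list of 39 named genes was looked up among the 54826 gene entries of the expression table, and all 39 were found. They comprise 8 interstitial collagens, 6 basement membrane collagens and laminins, 5 other matrix proteins and cross-linking enzymes, 9 integrin subunits, 8 proteases and 3 protease inhibitors. Of these, 4 stood in an entry that also carries another name and therefore shares its value. They are ITGB3 (with EFCAB13), LOXL2 (with ENTPD4), TIMP2 (with CEP295NL) and MMP2 (with a noncoding name).

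RNA was sequenced from 10 libraries, 5 labelled as wild type VDR with a scrambled infection (VDR-WT) and 5 labelled as VDR knockout (VDR-KD in the study). Within each genotype, 1 library came from cells given 0.1% ethanol, the vehicle, and 1 each from cells given 100 nM of a secosteroid, either the dihydroxylated 1,25(OH)2D3 and 1,20(OH)2D3 or the monohydroxylated 25(OH)D3 and 20(OH)D3. All cells were kept for 24 h in medium with charcoal-treated serum. The submitters mention treatment in triplicate, but the table holds 1 column per condition. No condition thus had a replicate here, and whether a column is 1 culture, a pool or an average is not stated in the sources used here. Each genotype is 1 cell population, so the loss of VDR and any other difference between the populations cannot be told apart. VDR mRNA was higher in the libraries labelled VDR-KD (12.0 to 14.8 FPKM) than in those labelled VDR-WT (5.54 to 9.63 FPKM), which goes against a loss of the transcript. The genotype names below are therefore the labels of the libraries.

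The matrix is a meshwork of collagens, laminins and glycoproteins that cells make, attach to and remodel. Integrins are paired receptors, each of an alpha and a beta chain, that tie matrix proteins to the actin cytoskeleton. Matrix metalloproteases (MMPs) cleave the meshwork and TIMP proteins inhibit them, and in melanoma this balance is known for its part in invasion.

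Values are FPKM, fragments scaled to transcript length and library size, so levels of different genes are compared per length. Where 5 values follow each other, their order is ethanol first, then 1,25(OH)2D3, then 1,20(OH)2D3, and after these 25(OH)D3 before 20(OH)D3. Changes are given on the scale of log2(FPKM + 0.1), which understates those of low genes. They were tested with limma over 14689 entries with a mean of at least 0.5 FPKM, and called at a Benjamini-Hochberg adjusted p under 0.05. The treatments stood in for replicates of the genotypes, and the genotypes for replicates of the treatments. A p-value in these comparisons thus weighs a difference against what genotype and treatment effects added together leave unexplained. That remainder mixes any response particular to 1 genotype with the scatter of single libraries, which may be technical. Without read counts, depth and counting error are unknown. The summed FPKM was between 577696 and 651658 per library. Since RNA came from whole cultures, fewer cells of a kind and less RNA per cell cannot be told apart. The melanocyte genes MITF, PMEL, MLANA, TYR, DCT, SOX10 and S100B were expressed in every library. Defining genes of keratinocytes (KRT5, KRT14), endothelial cells (VWF, CDH5, PECAM1), leukocytes (PTPRC, CD3E) and, for fibroblasts, THY1 stayed below 1 FPKM throughout. Other genes of these lists were detected, among them KRT10 (5.49 to 11.7 FPKM) and LYZ, which was called higher in VDR-KD (0.71 ± 0.18 SE; limma, adjusted p = 0.0245). The entry of CD68, a macrophage gene, also carries the translation factor gene EIF4A1 and other names, so CD68 could not be read. LUM, the gene of the fibroblast proteoglycan lumican, was nonetheless high at 70.8 to 130.3 FPKM. Summed over the 5 fibroblast genes, of which PDGFRA shares an entry, the level was 105.2 to 131 FPKM in VDR-WT against 131 to 171 FPKM in VDR-KD. LUM makes up most of this sum and was called higher in VDR-KD (0.35 ± 0.069 SE; limma, adjusted p = 0.00865), whereas DCN, another fibroblast proteoglycan gene, was called lower (−1.20 ± 0.19 SE, adjusted p = 0.00340). The 7 melanocyte genes summed to 6339 to 9321 FPKM in VDR-WT against 5757 to 8389 FPKM in VDR-KD, with 1,25(OH)2D3 highest in each. Of these, 3 were called lower in VDR-KD and 0 higher, where 9.68% and 13.1% of all entries were. They were TYR (−0.49 ± 0.047 SE; limma, adjusted p = 0.000382), PMEL (−0.25 ± 0.070 SE, adjusted p = 0.0339) and MITF (−0.16 ± 0.048 SE, adjusted p = 0.0479). With 1,25(OH)2D3 against ethanol, MITF, MLANA and S100B were called higher, where 1.46% of all entries were. KDR made up most of the endothelial sum, 3.42 to 9.12 FPKM in VDR-WT and 9.91 to 22.7 FPKM in VDR-KD. It was called higher in VDR-KD (1.48 ± 0.094 SE; limma, adjusted p = 8.53e-05) and with 1,25(OH)2D3 against ethanol (1.21 ± 0.15 SE, adjusted p = 0.00695). The part of these differences in the results below was not tested.

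Most of the members were expressed. A mean of at least 1 FPKM was reached by 30, at least 10 FPKM by 24, at least 100 FPKM by 9. The filter removed 5 members, the collagen genes COL1A2 and COL3A1, FBN1 (fibrillin), LOX (lysyl oxidase, a collagen cross-linking enzyme) and PLAU (urokinase), which left 34 for the tests. The highest value among these 5 was 0.670 FPKM (LOX with 1,20(OH)2D3 in VDR-WT). The main chains of interstitial collagen were thus near 0, with COL1A1 at 0.155 to 1.24 FPKM, while the matrix protein SPARC had 2071 FPKM or more in every library.

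**Figure D1:**
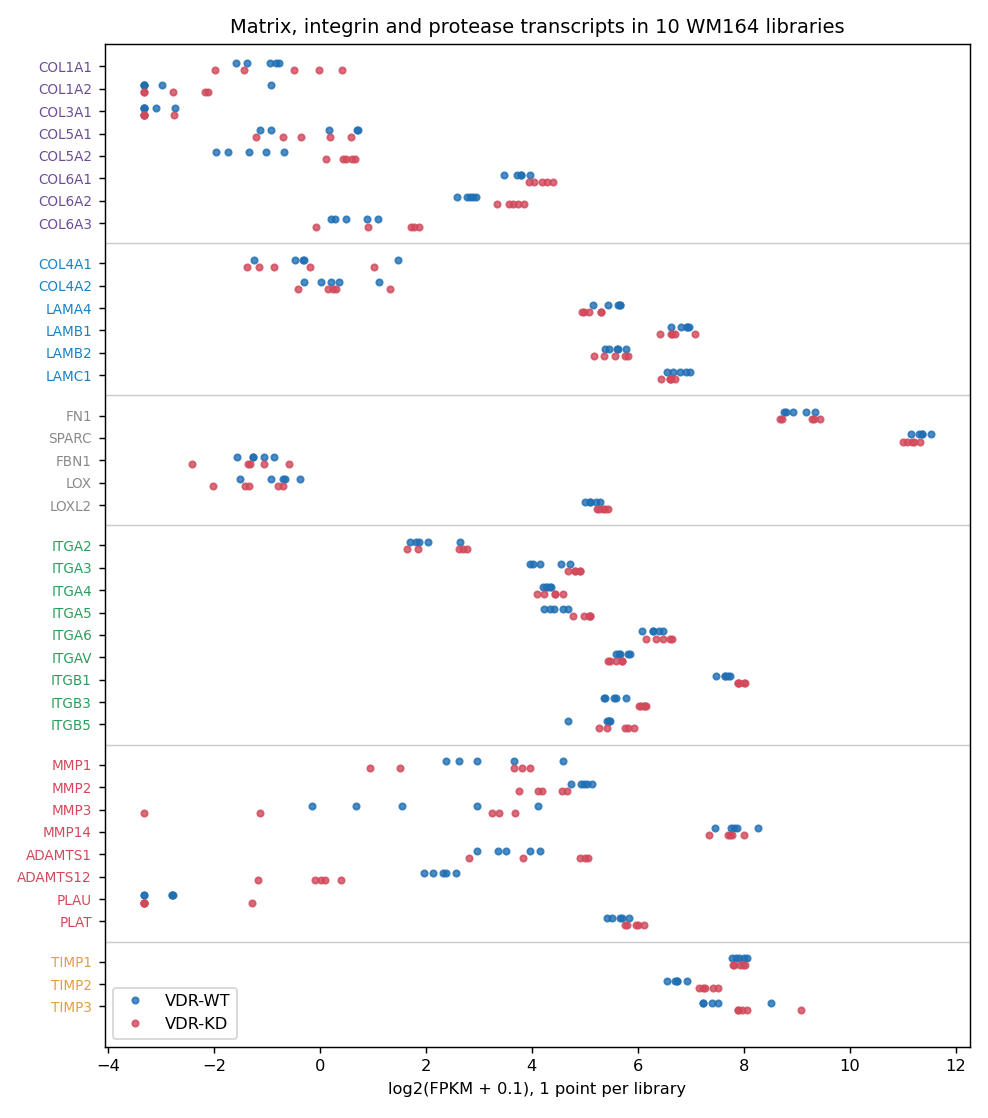
Level of each of the 39 members as log2(FPKM + 0.1), 1 point per library, blue for VDR-WT and red for VDR-KD, grouped by role. SPARC, FN1 and the TIMP genes lie at the high end, COL1A2, COL3A1 and PLAU at the low end, and MMP3 spreads from 0 to 17.2 FPKM.

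Promoters of members were examined because the study concerns a nuclear receptor that binds DNA. RefSeq promoter sequences (GRCh38.p14, 250 bases before to 50 after the start) were matched for 25 of the 39 members. Not matched were COL1A1, COL1A2, COL3A1, COL5A2, COL6A1, LOXL2, ITGA3, ITGB3, MMP1, MMP2, MMP3, ADAMTS1, PLAT and TIMP2. A vitamin D response element, searched on both strands as any pair of half-sites in direct repeat with 3 bases between them (AGNTCA with either G or T for N, and with the same choice for N also GGNTCA), was in 0 of the 25 and in 0.078% of the 10257 promoters of tested genes. An AP-1 motif, TGANTCA on both strands, was in 2 of the 25 (8%), against 4.71% of the tested genes' promoters and 7.76% of the 27305 promoters in the table. The stretches from 120 bases before to 10 bases after the start are printed for 4 of the matched members, with AP-1 matches in capitals. TIMP3 is shown because it responded to 1,25(OH)2D3, ADAMTS12 and COL6A2 because they did not overlap between the genotypes, and ITGA5 because its match spans the start.
TIMP3, chr22:32801585-32801714, plus strand: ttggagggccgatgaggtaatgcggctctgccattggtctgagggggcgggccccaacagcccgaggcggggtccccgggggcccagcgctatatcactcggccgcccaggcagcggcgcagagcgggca
ADAMTS12, chr5:33891981-33892110, minus strand: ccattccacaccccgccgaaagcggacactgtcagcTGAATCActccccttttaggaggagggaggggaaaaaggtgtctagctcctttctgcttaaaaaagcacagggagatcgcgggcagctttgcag
ITGA5, chr12:54419257-54419386, minus strand: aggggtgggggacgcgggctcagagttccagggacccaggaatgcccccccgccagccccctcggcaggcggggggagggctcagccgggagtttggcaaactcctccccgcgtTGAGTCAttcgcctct
COL6A2, chr21:46097992-46098121, plus strand: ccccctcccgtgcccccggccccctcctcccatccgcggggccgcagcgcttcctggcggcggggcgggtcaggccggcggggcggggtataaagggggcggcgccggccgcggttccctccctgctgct

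Between the genotypes, transcripts of 3 collagen chains (COL5A2, COL6A1, COL6A2), 5 integrin subunits (ITGA3, ITGA5, ITGB1, ITGB3, ITGB5), PLAT, TIMP2 and TIMP3 rose, and ADAMTS12, MMP2 and LAMA4 fell, from the libraries labelled VDR-WT to those labelled VDR-KD. Of the 34 members tested with limma, 11 were called higher and 3 lower. Over all 14689 entries the called shares were 13.1% higher and 9.68% lower, so the share of members called higher (32.4%) lay above the background and the share called lower (8.82%) near it. These shares are a description and not a test of enrichment. The members were chosen with earlier results of these data known. Of them, 24 averaged at least 10 FPKM, and the background of all entries was not matched to them in level. The median log2 change was 0.12 over the members and 0.02 over all entries. Every VDR-KD library exceeded every VDR-WT library for 6 members, COL5A2, COL6A2, ITGA5, ITGB1, ITGB3 and TIMP2, where 9.03% of all entries did so. The reverse held for MMP2 and ADAMTS12, against 5.58% of all entries. COL5A2 is in both the called and the non-overlapping counts, though it passed the filter of 0.5 FPKM only through the VDR-KD libraries. Without the VDR-KD 1,20(OH)2D3 and VDR-WT 20(OH)D3 libraries, an alternative chosen after seeing the data, 7 of the 14 calls remained, those of COL6A2, ITGA5, ITGB5, ADAMTS12, PLAT, TIMP2 and TIMP3, while 978 of all entries were called in place of 3347.

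**Figure D2:**
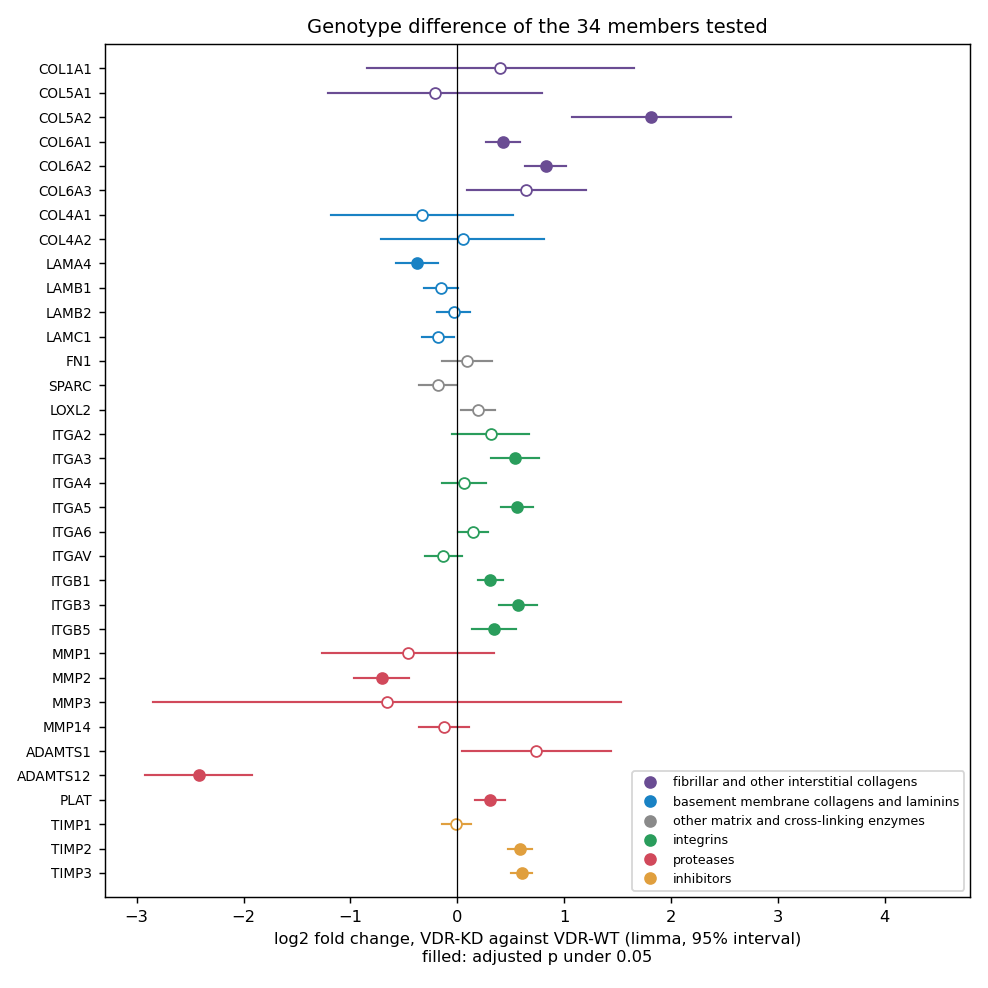
Log2 fold change of the 34 tested members, VDR-KD against VDR-WT, with limma's 95% interval and filled points for an adjusted p under 0.05, coloured by role. Points right of 0 are higher in VDR-KD; ADAMTS12 at −2.42 and COL5A2 at 1.81 lie farthest out, and 5 of the 9 integrin subunits are filled.

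Among interstitial collagens, 3 of the 6 tested members rose and none fell. COL6A2, which encodes the alpha 2 chain of the microfibril-forming collagen VI (chr21:46098097-46132849, plus strand), measured 6.72, 5.91, 7.62, 7.05 and 7.34 FPKM in VDR-WT and 12.4, 10.1, 13.3, 14.4 and 11.7 FPKM in VDR-KD. The lowest VDR-KD library thus exceeded the highest VDR-WT library. The log2 change was 0.82 ± 0.084 (SE; limma, adjusted p = 0.000496), and VDR-KD was higher in 5 of 5 treatments. COL6A1, the partner chain (chr21:45981737-46005050, plus strand), lies 93.05 kb upstream of COL6A2. It had 13.8, 11.0, 13.8, 15.4 and 13.1 FPKM in VDR-WT against 16.5, 15.4, 19.5, 21.0 and 18.3 FPKM in VDR-KD. The ranges touched, since the VDR-KD 1,25(OH)2D3 library lay just below the VDR-WT 25(OH)D3 library, and within each of the 5 treatments VDR-KD was higher. The COL6A1 change was 0.43 ± 0.070 (SE; limma, adjusted p = 0.00369), smaller than that of COL6A2. The ratio of COL6A1 to COL6A2 accordingly ranged from 1.79 to 2.19 in VDR-WT but only from 1.33 to 1.56 in VDR-KD, with no overlap.

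The remaining chain, COL6A3, behaved differently from its partners. It measured 2.03, 1.06, 1.12, 1.75 and 1.31 FPKM in VDR-WT and 3.19, 0.854, 1.77, 3.34 and 3.55 FPKM in VDR-KD. The VDR-KD 1,25(OH)2D3 library was the lowest of all 10, and the genotypes overlapped (log2 change 0.65 ± 0.24 SE; limma, adjusted p = 0.0908). COL5A2, a chain of the fibril-regulating collagen V (chr2:189031896-189225312, minus strand), was low. Its VDR-WT mean of 0.314 FPKM was under the filter of 0.5 FPKM, which it passed only through VDR-KD (mean 1.29 FPKM). With a filter of 1 FPKM it was not tested. Its levels were 0.200, 0.294, 0.396, 0.524 and 0.155 FPKM in VDR-WT and 1.48, 1.31, 1.26, 1.43 and 0.983 FPKM in VDR-KD. All VDR-WT libraries lay below all VDR-KD libraries, and the change was 1.81 ± 0.33 (SE; limma, adjusted p = 0.00555). COL3A1 lies 19.1 kb from COL5A2 on the opposite strand and was at or near 0 FPKM in every library. COL5A1, the other collagen V chain among the members, ranged from 0.334 to 1.54 FPKM with no call.

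Of the 6 basement membrane genes, 1 was called lower and none higher. LAMA4, the laminin alpha 4 chain (chr6:112108760-112254939, minus strand), had 43.0, 50.6, 49.3, 35.7 and 50.4 FPKM in VDR-WT and 31.7, 39.4, 39.7, 33.8 and 30.7 FPKM in VDR-KD. VDR-KD was lower in 5 of 5 treatments, although the ranges overlapped through the VDR-WT 25(OH)D3 library. The log2 change of −0.38 ± 0.087 (SE; limma, adjusted p = 0.0153) lost its call when the ethanol or the 1,25(OH)2D3 library of either genotype was left out. Adjusted p was then 0.0582 and 0.0564 without these VDR-WT libraries and 0.0584 and 0.0562 without these VDR-KD libraries. Leaving out the VDR-WT or the VDR-KD library of a treatment is not a separate check. The treatment term of the fit takes up the partner left behind, so the estimated genotype difference is the same. LAMB1, the laminin beta 1 chain, measured 121, 98.4, 124, 121 and 113 FPKM in VDR-WT and 135, 85.6, 104, 98.5 and 100.1 FPKM in VDR-KD. The ethanol library of VDR-KD was the highest of all and the 1,25(OH)2D3 library of VDR-KD the lowest. LAMC1, the gamma 1 chain shared by most laminins, had 120.3, 101, 127, 93.6 and 111 FPKM in VDR-WT against 99.1, 104, 97.9, 86.6 and 97.6 FPKM in VDR-KD. Neither LAMB1 nor LAMC1 was called, and LAMB2 spanned 35.8 to 56.0 FPKM.

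COL4A1 and COL4A2 encode the chains of the main basement membrane collagen from a head-to-head pair on chromosome 13, where their annotated ends overlap by 1422 bases. If counting ignored strand, reads in the overlap cannot be assigned, and the use of strand is not stated in the sources used here. COL4A1 stood at 0.618, 2.68, 0.707, 0.323 and 0.696 FPKM in VDR-WT and 0.284, 1.94, 0.449, 0.780 and 0.353 FPKM in VDR-KD. Both libraries with 1,25(OH)2D3 exceeded the other 8. COL4A2 ranged from 0.653 to 2.41 FPKM, and there neither 1,25(OH)2D3 library was the highest. The ratio of COL4A1 to COL4A2 reached 2.26 for VDR-WT and 2.97 for VDR-KD with 1,25(OH)2D3, and was 0.186 to 0.984 in the other libraries. The COL4A1 change with 1,25(OH)2D3 was 2.18 ± 0.59 (SE; limma, adjusted p = 0.115), which was not called at these low levels.

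SPARC, a secreted collagen-binding protein, was the most abundant member. It measured 2646, 2639, 2543, 2293 and 2973 FPKM in VDR-WT and 2071, 2387, 2578, 2304 and 2175 FPKM in VDR-KD. These ranges overlapped and the change of −0.18 ± 0.075 (SE) was not called (limma, adjusted p = 0.114). FN1, fibronectin, had 576, 446, 491, 652 and 432 FPKM in VDR-WT and 691, 413, 423, 640.5 and 629 FPKM in VDR-KD. Libraries of both genotypes were spread over the whole range (limma, adjusted p = 0.569). LOXL2, a lysyl oxidase relative that cross-links collagen, measured 32.1 to 38.7 FPKM in VDR-WT, against 37.5 to 43.5 FPKM in VDR-KD, and was not called.

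Of the 9 integrin subunits, 5 rose and none fell in the libraries labelled VDR-KD. ITGB1, the beta 1 chain common to most matrix receptors (chr10:32900319-33005792, minus strand), was the most abundant. It had 209, 214, 200.5, 178 and 199.6 FPKM in VDR-WT and 258, 239, 261, 241 and 238 FPKM in VDR-KD. The groups did not overlap, and the change was small, 0.31 ± 0.052 (SE; limma, adjusted p = 0.00427). ITGA5, which pairs with beta 1 into the fibronectin receptor (chr12:54395261-54419460, minus strand), measured 23.9, 18.7, 21.2, 25.4 and 20.2 FPKM in VDR-WT and 34.2, 27.2, 31.5, 34.3 and 33.8 FPKM in VDR-KD. Again every VDR-KD library was the higher, with a change of 0.56 ± 0.065 (SE; limma, adjusted p = 0.000867). ITGA3, the alpha 3 chain of a laminin receptor (chr17:50055968-50090481, plus strand), had 23.3, 16.1, 17.8, 26.2 and 15.5 FPKM in VDR-WT and 29.8, 25.5, 28.0, 30.1 and 27.9 FPKM in VDR-KD. VDR-KD was higher in 5 of 5 treatments with overlap between the VDR-KD 1,25(OH)2D3 and VDR-WT 25(OH)D3 libraries, and the change was 0.54 ± 0.098 (SE; limma, adjusted p = 0.00576).

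Beta chains that pair with the alpha V chain rose, while alpha V itself was not called. ITGB3 (chr17:47253846-47311816, plus strand), the beta 3 chain of the vitronectin receptor, measured 55.0, 48.0, 40.9, 46.8 and 41.4 FPKM in VDR-WT and 65.0, 69.0, 69.9, 71.2 and 67.0 FPKM in VDR-KD, in an entry shared with EFCAB13. The groups did not overlap and the change was 0.57 ± 0.079 (SE; limma, adjusted p = 0.00179). ITGAV, the alpha V chain itself, ranged from 48.1 to 57.5 FPKM in VDR-WT and from 43.4 to 52.1 FPKM in VDR-KD (−0.13 ± 0.077 SE; limma, adjusted p = 0.252). The ratio of ITGB3 to ITGAV therefore lay between 0.815 and 0.955 in VDR-WT, below the 1.29 to 1.61 of VDR-KD. ITGB5, the beta 5 chain (chr3:124761948-124901418, minus strand), had 42.8, 25.4, 44.0, 43.7 and 44.4 FPKM in VDR-WT and 56.4, 38.4, 54.3, 60.5 and 42.9 FPKM in VDR-KD. The 1,25(OH)2D3 library was the lowest of its genotype in both, and VDR-KD was higher in 4 of 5 treatments. Its change of 0.34 ± 0.090 (SE; limma, adjusted p = 0.0270) was lost in 16 of 23 alternatives. Leaving out the VDR-WT library with ethanol, with 1,25(OH)2D3, with 1,20(OH)2D3 or with 25(OH)D3 gave an adjusted p of 0.0857, 0.100, 0.0753 and 0.0990, and leaving out the VDR-KD library 0.0866, 0.101, 0.0762 and 0.0988. For each treatment, leaving out either library or the pair gives the same genotype estimate. The alternatives counted are thus not all separate checks.

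The other subunits were not called. ITGA6, the alpha 6 chain of laminin receptors, measured 77.9, 67.2, 78.3, 83.9 and 88.7 FPKM in VDR-WT and 97.7, 71.0, 81.3, 99.7 and 89.5 FPKM in VDR-KD. It was higher in VDR-KD in 5 of 5 treatments, with overlapping ranges. ITGA4 stayed between 17.1 and 24.0 FPKM and ITGA2, the alpha chain of a collagen receptor, between 3.04 and 6.79 FPKM. The summed level of all 9 subunits was 469 to 513 FPKM in VDR-WT and 535 to 619 FPKM in VDR-KD.

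Of 7 proteases tested, 1 was called higher and 2 lower. ADAMTS12, a secreted metalloprotease with thrombospondin motifs (chr5:33523535-33892192, minus strand), showed the largest difference of any member. It had 4.28, 3.80, 5.84, 5.10 and 4.91 FPKM in VDR-WT and 0.345, 0.919, 1.21, 0.970 and 0.842 FPKM in VDR-KD. The highest VDR-KD library was below the lowest VDR-WT library, and the change was −2.42 ± 0.22 (SE; limma, adjusted p = 0.000290). MMP2, the gelatinase A gene (chr16:55389700-55506691, plus strand), measured 35.1, 26.7, 31.6, 30.4 and 32.7 FPKM in VDR-WT and 18.2, 13.4, 17.2, 23.5 and 25.3 FPKM in VDR-KD. These groups did not overlap either, with a change of −0.71 ± 0.11 (SE; limma, adjusted p = 0.00312). PLAT, tissue plasminogen activator (chr8:42175233-42207724, minus strand), rose from 42.7, 57.2, 51.9, 45.6 and 50.5 FPKM in VDR-WT to 55.6, 69.6, 64.5, 62.1 and 53.9 FPKM in VDR-KD. VDR-KD was higher in 5 of 5 treatments although the ranges overlapped, and the change was 0.30 ± 0.062 (SE; limma, adjusted p = 0.00979).

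MMP14, a membrane-anchored MMP that activates the MMP2 proenzyme, was the most abundant protease. It measured 236, 309, 217, 225 and 175 FPKM in VDR-WT and 163, 257, 219, 209 and 214 FPKM in VDR-KD. The 1,25(OH)2D3 library was the highest of each genotype, and the genotypes overlapped (−0.12 ± 0.10 SE; limma, adjusted p = 0.436).

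Of the inhibitors, TIMP2 and TIMP3 rose and TIMP1 was not called. TIMP2, which binds both MMP14 and MMP2 (chr17:78852977-78925387, minus strand), had 94.3, 121, 104, 106 and 106 FPKM in VDR-WT and 142, 184, 171, 154 and 150.4 FPKM in VDR-KD, in an entry shared with CEP295NL. All VDR-KD libraries were above all VDR-WT libraries, and the change was 0.59 ± 0.049 (SE; limma, adjusted p = 0.000209). TIMP3, the matrix-bound inhibitor (chr22:32801701-32863043, plus strand), measured 151, 364, 168, 183 and 151 FPKM in VDR-WT and 237, 545, 249, 269 and 238 FPKM in VDR-KD. VDR-KD was higher in 5 of 5 treatments by nearly the same factor, 0.60 ± 0.042 on the log2 scale (SE; limma, adjusted p = 0.000106), and the ranges overlapped only through the VDR-WT 1,25(OH)2D3 library. Without the treatment term in the fit, the TIMP3 call was lost (adjusted p = 0.154). TIMP1 stayed at 258, 229.9, 218, 266 and 241 FPKM in VDR-WT and 223, 226, 245, 253 and 259 FPKM in VDR-KD, with a change of −0.01 and a 95% interval from −0.15 to 0.13.

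**Figure D3:**
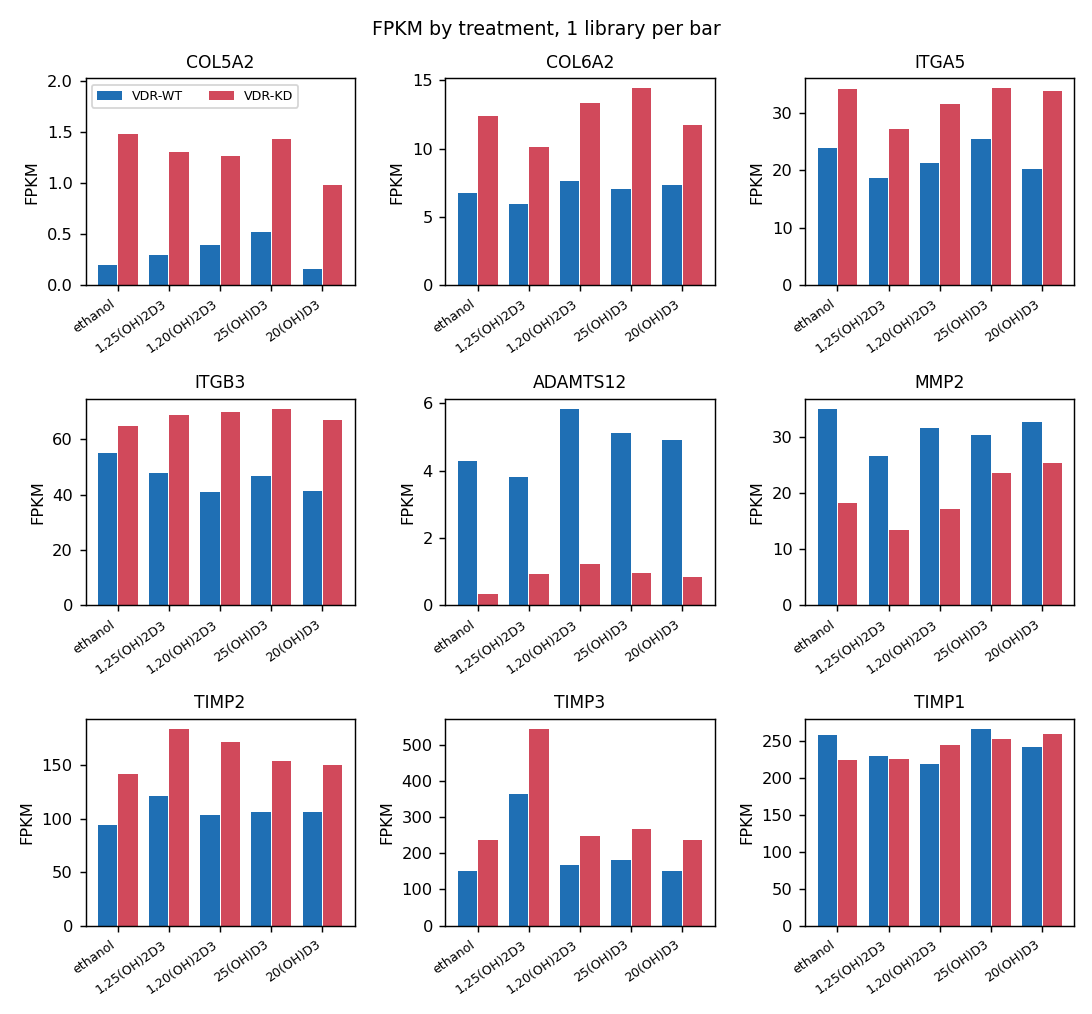
FPKM of 8 members called between the genotypes and of TIMP1, 1 library per bar, blue for VDR-WT and red for VDR-KD, by treatment. ADAMTS12 and MMP2 are lower in all 5 VDR-KD libraries, COL5A2, COL6A2, ITGA5, ITGB3 and TIMP2 higher, and TIMP3 is highest with 1,25(OH)2D3 in both genotypes.

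Ratios within a library put proteases and inhibitors side by side, and they do not depend on scaling between libraries. MMP14 to TIMP2 was 1.65 to 2.55 in VDR-WT (mean 2.18 ± 0.37, SD over 5 treatments) and 1.15 to 1.43 in VDR-KD (1.32 ± 0.11). MMP2 to TIMP2 lay between 0.220 and 0.372 in VDR-WT, and in VDR-KD between 0.0727 and 0.168. For MMP1, MMP2, MMP3 and MMP14 summed over the 3 TIMP genes, the ratio was 0.431 to 0.578 in VDR-WT, against 0.285 to 0.408 in VDR-KD. None of these 3 ratios overlapped between the genotypes, whereas other ratios with a protease did. MMP1 to TIMP1 spanned 0.00804 to 0.0613 for VDR-KD, within or below the VDR-WT span of 0.0223 to 0.0895. For MMP2 to MMP14, VDR-KD reached from 0.0521 up to 0.118, and VDR-WT from 0.0862 up to 0.187. How many ratios would separate by chance was not tested. All of these ratios are descriptions without a test, and the 3 that separated hold members already known to differ. They are ratios of transcripts and not of active proteins.

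**Figure D4:**
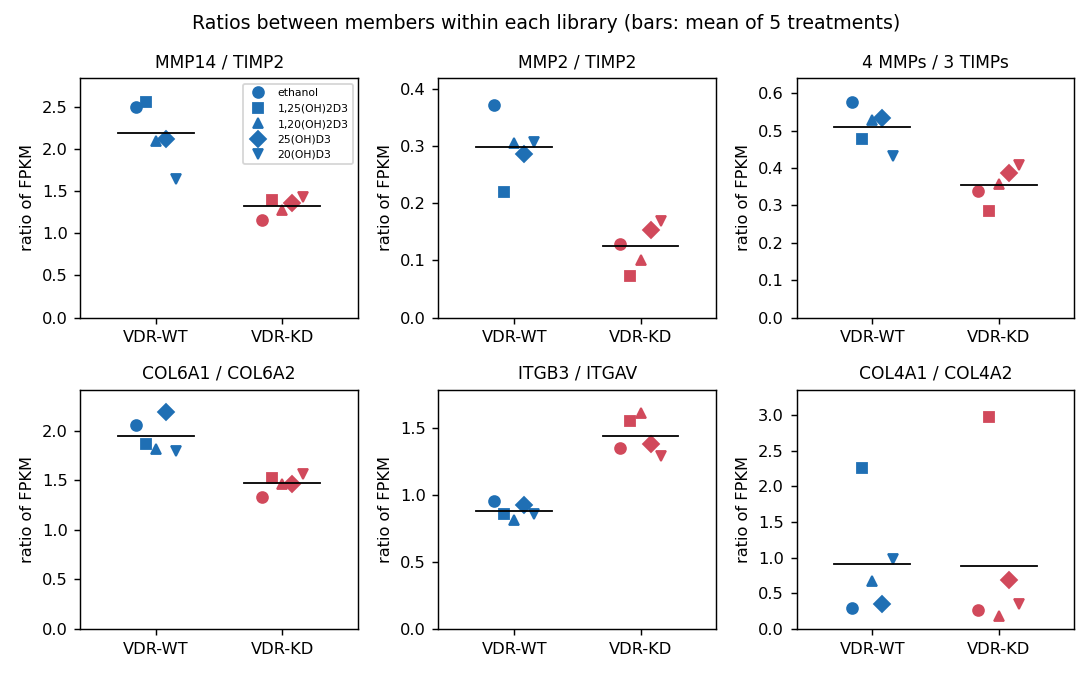
Ratios of FPKM between members within each library, by genotype, 1 marker shape per treatment and a bar at the mean of 5 treatments. The MMP to TIMP ratios shown and COL6A1 to COL6A2 are lower in VDR-KD and ITGB3 to ITGAV is higher, while COL4A1 to COL4A2 is set apart only by the 1,25(OH)2D3 libraries (2.26 and 2.97).

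Each compound was then compared with ethanol across both genotypes. These comparisons share the same 2 ethanol libraries. With 1,25(OH)2D3, the hormonal form of vitamin D, 1 member was called higher and 0 lower, where 1.46% and 0.531% of all entries were called. The member was TIMP3, whose level was 2.41-fold that with ethanol in VDR-WT and 2.30-fold in VDR-KD (log2 change 1.24 ± 0.066 SE; limma, adjusted p = 0.000142). The call held in all 16 alternatives. Whether the response differed between the genotypes was tested in another fit, of 1,25(OH)2D3 against all other treatments pooled and not against ethanol alone. No difference was detected for TIMP3, with an interaction of −0.03 and a 95% interval from −0.42 to 0.37. At an unadjusted p under 0.05, 5 of 34 members (14.7%) were higher and 11 (32.4%) lower with 1,25(OH)2D3, where 8.92% of all entries were higher and 7.54% lower. Those higher were TIMP3, TIMP2, MMP14, PLAT and COL4A1. ITGB5 (−0.65 ± 0.14 SE, adjusted p = 0.0612) and TIMP2 (0.37 ± 0.078 SE, adjusted p = 0.0559) missed the threshold of limma most narrowly. All 9 integrin subunits had a fitted change below 0, from −0.70 for ITGA2 to −0.04 as the smallest, and none was called. Against the same ethanol libraries, 8 of the 9 were also below 0 with 1,20(OH)2D3, 7 with 20(OH)D3 and 3 with 25(OH)D3.

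The other compounds gave no member call with limma. For 1,20(OH)2D3 against ethanol, 0 of 34 members and 0.0204% of all entries were called, with 7 members (20.6%) and 12.5% of all entries at an unadjusted p under 0.05. For 25(OH)D3, 0 members and 0% of all entries were called, and 2 members (5.88%) and 8.03% of all entries had an unadjusted p under 0.05. With 20(OH)D3 the member counts were the same, 0% of all entries were called, and 14.2% had an unadjusted p under 0.05. The test of whether the genotypes differed in the 1,25(OH)2D3 response, taken against all other treatments pooled, called 0 members and 0% of entries. In that limma fit 1 member, ADAMTS1, had an unadjusted p under 0.05 (0.0485), as had 3.06% of all entries. None of these counts shows that the compounds or genotypes acted alike. The change of TIMP3 with 1,20(OH)2D3 was 0.12 with a 95% interval from −0.03 to 0.27, with 25(OH)D3 0.23 with an interval from 0.08 to 0.38, and with 20(OH)D3 0.00 with an interval from −0.15 to 0.15.

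Compounds that differ by the place or presence of a single hydroxyl group were compared at the same dose and time, in 4 pairs. The pair 1,25(OH)2D3 and 1,20(OH)2D3 differs in the side chain position of a hydroxyl, and TIMP3 was the 1 member called (0.259% of all entries). It was higher with 1,25(OH)2D3 by 1.12 ± 0.066 on the log2 scale (SE; limma, adjusted p = 0.000957), a call lost without the 1,25(OH)2D3 library of VDR-WT (adjusted p = 0.0550) or of VDR-KD (0.0631), and without the VDR-KD 1,20(OH)2D3 and VDR-WT 20(OH)D3 libraries (0.134). Between 1,25(OH)2D3 and 25(OH)D3, which lacks the hydroxyl at C1α, TIMP3 was called higher (2.12% of all entries) by 1.01 ± 0.066 (SE; limma, adjusted p = 0.000598). ITGB5 and MMP1 were called lower (0.939% of all entries), by −0.71 ± 0.14 (SE; adjusted p = 0.0373) and −2.61 ± 0.56 (SE; adjusted p = 0.0473). The ITGB5 call was lost in 11 of 16 alternatives and the MMP1 call in 12 of 16. Both were lost on leaving out any library of either genotype other than those with 20(OH)D3, with adjusted p from 0.0833 to 0.268 for ITGB5 and from 0.0827 to 0.345 for MMP1. Between 1,20(OH)2D3 and 20(OH)D3, 0 members and 0.034% of entries were called, and no member, against 7.31% of all entries, had an unadjusted p under 0.05. Between 25(OH)D3 and 20(OH)D3, 0 members and 0% of entries were called, with 3 members (8.82%) and 6.6% of all entries at an unadjusted p under 0.05. The difference in TIMP3 had 95% intervals from −0.04 to 0.26 in the former pair and from 0.07 to 0.38 in the latter.

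Several members varied more between libraries than between genotypes. MMP1, interstitial collagenase, and MMP3, stromelysin 1, lie 37.6 kb apart on chromosome 11. MMP1 measured 12.5, 5.13, 7.69, 23.8 and 6.04 FPKM in VDR-WT and 12.6, 1.82, 2.77, 15.5 and 14.0 FPKM in VDR-KD. MMP3 measured 7.70, 1.5, 2.84, 17.2 and 0.797 FPKM in VDR-WT and 9.38, 0.354, 0, 12.8 and 10.3 FPKM in VDR-KD. In both genes the ethanol and 25(OH)D3 libraries were high and the 1,25(OH)2D3 and 1,20(OH)2D3 libraries low in both genotypes, whereas 20(OH)D3 was low in VDR-WT and high in VDR-KD. ADAMTS1, a protease that cleaves proteoglycans, had 15.5, 10.1, 11.3, 17.6 and 7.71 FPKM in VDR-WT and 30.1, 6.93, 14.1, 32.1 and 33.4 FPKM in VDR-KD. ITGA2 had 4.0, 3.13, 3.58, 6.12 and 3.43 FPKM in VDR-WT and 6.41, 3.04, 3.53, 6.79 and 6.06 FPKM in VDR-KD. These and the FN1 and COL6A3 values above follow the same sequence of high and low libraries in VDR-KD.

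Of 6 heat shock genes read, the inducible chaperone genes HSPA6, HSPA1A and HSPA1B were high and low in the same libraries. HSPA6 measured 9.37, 0.176, 6.71, 15.7 and 0.655 FPKM in VDR-WT and 32.3, 0.720, 0.468, 44.5 and 31.6 FPKM in VDR-KD. HSPA1A had 42.1, 6.65, 28.7, 71.1 and 11.2 FPKM in VDR-WT and 123, 9.57, 16.6, 165 and 123 FPKM in VDR-KD. The other heat shock genes did not follow this sequence. DNAJB1 was highest with 1,25(OH)2D3 in both genotypes, at 103 and 141 FPKM, HSPB1 ranged from 233 FPKM (VDR-KD ethanol) to 450.5 FPKM (VDR-KD 1,20(OH)2D3), and HSPH1 from 57.7 to 99.2 FPKM. The part of this library state, as read from HSPA6 and HSPA1A, in the values of MMP1, MMP3, ADAMTS1, ITGA2, FN1 and COL6A3 was not tested. The libraries with 1,25(OH)2D3 had the lowest HSPA6 level in VDR-WT and the next to lowest in VDR-KD, so for these members the compound and the library state cannot be told apart. Summed over the 6 heat shock genes, the level was 451 to 566 FPKM in VDR-WT against 565 to 892 FPKM in VDR-KD. DNAJB1 (0.43 ± 0.046 SE; limma, adjusted p = 0.000582) and HSPH1 (0.42 ± 0.076 SE, adjusted p = 0.00611) were called higher in VDR-KD, where 13.1% of all entries were. The part of this difference in the genotype calls was not tested. TIMP3 measured 151 FPKM in the VDR-WT 20(OH)D3 library and 249 FPKM in the VDR-KD 1,20(OH)2D3 library, both of which were low in HSPA6.

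**Figure D5:**
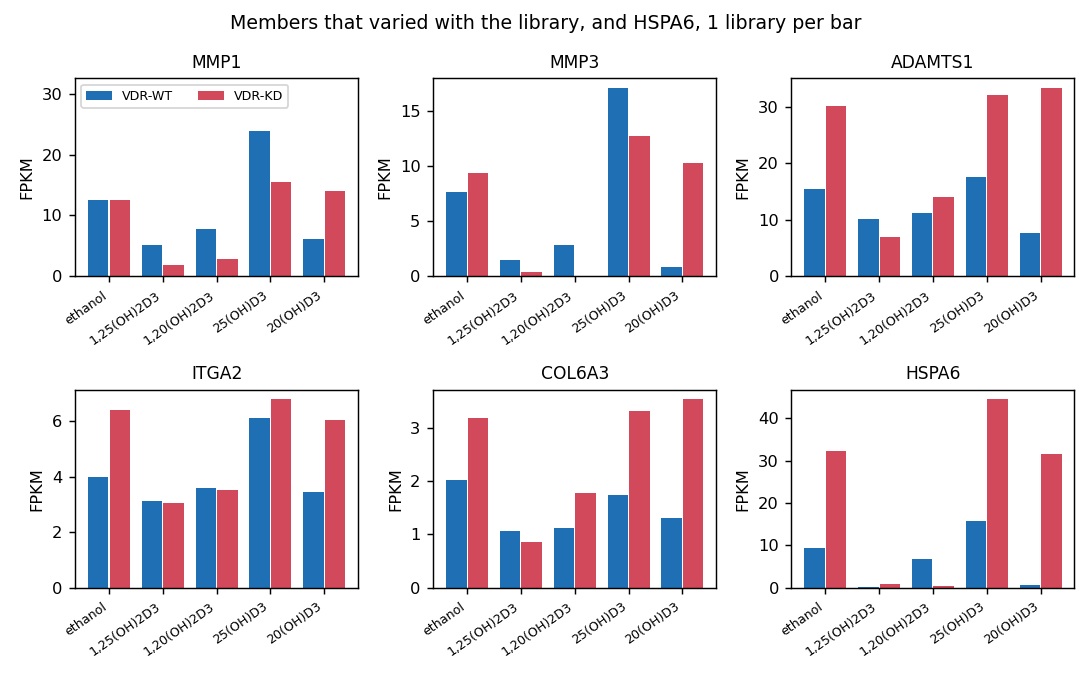
FPKM of MMP1, MMP3, ADAMTS1, ITGA2 and COL6A3 and of the heat shock gene HSPA6, 1 library per bar, by treatment and genotype. In VDR-KD all 6 are low with 1,25(OH)2D3 and 1,20(OH)2D3 and high with ethanol, 25(OH)D3 and 20(OH)D3, and HSPA6 spans 0.176 to 44.5 FPKM.

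Other genes of matrix and adhesion were read from 8 lists beside the members, and their counts stand beside the shares over all entries, 13.1% called higher and 9.68% lower. The lists hold 5 to 16 tested genes each and were not tested as sets. In the comparison of the genotypes by limma, the other collagens had 1 gene called higher and 3 lower of 12 tested. COL14A1 was higher by 2.17 ± 0.37 (SE), and COL9A1 was lower at −0.87 ± 0.23, COL27A1 at −0.38 ± 0.074 and COL9A3 at −0.25 ± 0.055. COL14A1 averaged 0.316 FPKM in VDR-WT and 1.59 FPKM in VDR-KD, so it passed the filter of 0.5 FPKM only through VDR-KD. Among genes of collagen maturation, 1 was higher and 3 lower of 14. These were P4HB, a subunit of prolyl 4-hydroxylase (0.56 ± 0.059), LOXL3 (−0.79 ± 0.096), the collagen chaperone SERPINH1 (−0.57 ± 0.072) and P4HA1, the catalytic prolyl hydroxylase chain (−0.47 ± 0.056). Of 8 other laminin and basement membrane genes, 2 were higher and 3 lower, with HSPG2, the proteoglycan perlecan (−0.92 ± 0.081), LAMC3 (−0.91 ± 0.12) and LAMA2 (0.40 ± 0.096) among them. Of 14 other glycoproteins and proteoglycans, 2 were higher and 1 lower, namely TNC, tenascin C (1.05 ± 0.076), VCAN, versican (0.86 ± 0.23), and MFAP2 (−1.23 ± 0.26).

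For the lists of adhesion, proteases and inhibitors, the same shares over all entries apply. Of 5 other integrin subunits, ITGB8 (1.15 ± 0.13 SE) and ITGA7 (0.44 ± 0.073) were higher and none was lower. Of 13 adhesion complex genes, 4 were higher and none lower, FERMT1 (0.60 ± 0.14), BCAR1 (0.51 ± 0.076), VCL, vinculin (0.36 ± 0.070), and PXN, paxillin (0.22 ± 0.059). Of 16 other proteases, 7 were higher and 1 lower, with FAP (1.19 ± 0.36), ADAM19 (0.93 ± 0.22), MMP16 (0.47 ± 0.072) and MMP15 (0.43 ± 0.12) the largest. Among the other inhibitors, SPINT1 (1.80 ± 0.43) was called higher and SERPINF1 (−0.78 ± 0.087) lower. FAP averaged 0.312 FPKM in VDR-WT and 0.831 FPKM in VDR-KD, and SPINT1 0.254 and 1.12 FPKM. Both thus passed the filter of 0.5 FPKM only through VDR-KD. Adjusted p was under the threshold for each gene named in this and the preceding comparison of lists.

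With 1,25(OH)2D3 against ethanol, 6 genes of these lists were called by limma. The lists hold 5 to 16 tested genes each, and over all entries 1.46% were called higher and 0.531% lower in this comparison. SPP1, osteopontin, a matrix protein and a known vitamin D target, rose from 56.4 to 181 FPKM in VDR-WT and from 55.7 to 185 FPKM in VDR-KD (1.71 ± 0.14 SE, adjusted p = 0.00116). COL16A1 rose from 8.18 to 52.7 FPKM in VDR-WT and from 8.62 to 25.9 FPKM in VDR-KD (2.13 ± 0.24 SE, adjusted p = 0.00568). TNC fell from 91.2 to 35.5 FPKM in VDR-WT and from 184 to 91.9 FPKM in VDR-KD (−1.18 ± 0.12 SE, adjusted p = 0.00384). The remaining calls were PLOD1, a collagen lysyl hydroxylase (0.60 ± 0.12 SE), THBS1, thrombospondin 1 (−1.43 ± 0.27), and SERPINE2, a serine protease inhibitor (−0.91 ± 0.18). THBS1 and SERPINE2 were also low in the VDR-KD library with 1,20(OH)2D3 (3.10 and 352 FPKM, against 7.63 and 668 FPKM with ethanol), which was low in HSPA6 too, and the part of that library state in their values was not tested. TNC thus rose with the VDR-KD label and fell with 1,25(OH)2D3 in both genotypes, while TIMP3 rose in both comparisons.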

How the data were processed

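The authors aligned reads of total RNA with STAR 2.7.1a to GRCh38, per the submitters' processing notes, and deposited FPKM computed with Cufflinks 2.2.1 and Cuffdiff. The sources used here state neither the gene annotation nor the treatment of strand or of reads with several positions, and read counts were not used here. FPKM were used as deposited, without further scaling. Of 54826 entries, 2050 carry several names and give all of them 1 value.

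Libraries were grouped by their labels, and 1 treatment label reading 2(OH)D3 was taken as 20(OH)D3 from the title of that library. Members and gene lists were chosen with earlier results of these data known. Every member is accounted for, and some items outside the members are not reported here. Values in all libraries are given for members called in any comparison and for the 2 most abundant of each role, and for COL4A1, COL6A3, ITGA2, MMP3 and ADAMTS1, which were chosen after their values were seen.

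Entries with a mean of at least 0.5 FPKM were tested with limma 3.58.1 in R 4.3.3 (lmFit, eBayes with a trend) on log2(FPKM + 0.1), with Benjamini-Hochberg adjustment over 14689 entries. An additive fit of genotype and treatment left 4 residual degrees of freedom. The fit of genotype by 1,25(OH)2D3, with all other treatments pooled as its baseline, left 6. The comparison of the genotypes and that of 1,25(OH)2D3 with ethanol were also run on simulated data with known changes. The simulated libraries scattered independently, and the outcome is not given here. Alternatives changed the added constant, the filter, the scaling, the variance trend, the treatment term and the libraries. Gene positions came from GENCODE 29 on GRCh38 and promoters from RefSeq. Ranges, ratios and motif matches came from Python 3.11.15 with pandas 2.3.3.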

Additional observations from a re-analysis of the deposited data

Results flagged for a closer look

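Among the 68 sets of 5 libraries (34 tested members in each genotype), 5 held a library whose gap to its nearest neighbour, divided by the range of the set, exceeded Dixon's critical value of 0.710. Chance gives about 1 in 20. TIMP3 stood apart with 1,25(OH)2D3 in VDR-WT, at 364 FPKM against 183 in the next library, and in VDR-KD, at 545 FPKM against 269. ITGB5 was lowest in VDR-WT with 1,25(OH)2D3, at 25.4 FPKM against 42.8. COL4A1 was highest in the same library, at 2.68 FPKM against 0.707. COL4A2 was highest in VDR-KD with 1,20(OH)2D3, at 2.41 FPKM against 1.14. Thus 4 of the 5 fell in libraries with 1,25(OH)2D3.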

How the results depend on the processing

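For the genotypes, 12 to 14 members were called under the other alternatives (13 to 14 with 1 library or treatment pair left out), and 7 without the VDR-KD 1,20(OH)2D3 and VDR-WT 20(OH)D3 libraries, which were added as an alternative after seeing the data. That fit has fewer libraries. For 1,25(OH)2D3 against ethanol, 2 members were called with quantile normalization and 1 to 2 with a library left out, the added ones being ITGB5 or LAMB1. For 1,25(OH)2D3 against 1,20(OH)2D3, 0 were called without the variance trend, 0 without the pair of libraries named above and 0 to 1 with a library left out. For 1,25(OH)2D3 against 25(OH)D3, 1 was called without a filter, 1 without the trend, 1 without that pair and 1 to 3 with a library left out. The causes were not tested. Over 401 single-gene alternatives for 19 results, 342 kept direction and call, 59 lost the call and 0 changed direction. These alternatives are not all separate checks. In the genotype fit, leaving out either library of a treatment or the pair gives the same estimate, and each was counted. Leaving out the libraries of lowest summed heat shock level could not be run for comparisons with 1,25(OH)2D3, since these were both its libraries; for the genotypes it gave 14 calls, 12 of them shared. The genotype fit paired the libraries by treatment, and without that block 12 members were called. Depth is unknown, which limits members near 1 FPKM, COL4A1, COL4A2, COL5A1, COL5A2 and ADAMTS12 in VDR-KD.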
